A study of Mus musculus with 2 samples.

Results

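Hyaluronan is a long, unbranched sugar chain that fills the space between the cells of skin and is laid down in quantity in wounds. It is made at the plasma membrane by hyaluronan synthases, is bound by receptors and by proteoglycans that build it into the matrix, and is cut by hyaluronidases into fragments that cells take up and degrade. The genes described are 8 of that system in skin wounds, taken by symbol from the deposited values, namely the synthases Has1, Has2 and Has3, the hyaluronidases Hyal1 and Hyal2, the receptor gene Cd44, and the genes of the hyaluronan-binding proteins TSG-6 (Tnfaip6) and versican (Vcan). All 8 were found among the 24346 gene symbols listed in each library.

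The study sequenced mRNA from dorsal skin wounds of neonatal C57BL/6J mice, with 1 library of genotype WT and 1 library of genotype PU.1_KO. Pups were wounded at 1 day of age by full-thickness incision, as the study's methods state (the series' design text calls the wounds excisional), and the wounds were taken 24 h later. No other treatment is given for either group, and how many pups went into each library is not given in the sources used here. PU.1, encoded by Spi1, is a transcription factor needed for myeloid and lymphoid development, and its loss leaves a newborn mouse without most of its inflammatory cells, macrophages among them. The 2 genotypes were compared to find genes whose level in a wound goes with inflammation.

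Values are FPKM, the fragments of a gene scaled to the length of its transcript and to the size of the library, so that levels of different genes can be compared per length. With 1 library per genotype there is no replicate check, no spread between animals and no p-value for any difference given here. A read number was estimated for each gene, and the intervals given are exact 95% intervals on those reads (Poisson for a level, Clopper-Pearson binomial for a ratio), which cover counting error only. Spi1 measured 35.4 FPKM in WT and 1.45 FPKM in PU.1_KO. The 10 macrophage markers were all at least 2-fold lower in the PU.1_KO library, and 6 of them, among them Adgre1, C1qa and Tyrobp, were listed at 0 there. Of the skin's own cell types, the 10 fibroblast markers had a median log2 ratio (PU.1_KO over WT) of 0.26 and the 10 keratinocyte markers one of 0.17. The 8 adipocyte markers had a median of −0.76. In PU.1_KO 3 of them were at least 2-fold lower, among them Cfd at 504 and 162 FPKM and Plin1 at 47.2 and 21.1 FPKM. They were uneven, with Fabp4, the most abundant, at 3408 FPKM in WT and 3037 FPKM in PU.1_KO. Pparg was slightly higher in PU.1_KO, at 14.0 and 15.0 FPKM. The libraries also differed in sex chromosome genes, with Xist listed at 0 in WT and at 9.48 FPKM in PU.1_KO and 4 Y-linked genes listed at 0 in PU.1_KO, so that genotype and sex cannot be told apart. In bulk tissue, fewer cells of a type and less RNA per cell cannot be told apart either.

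None of the 8 hyaluronan genes differed 2-fold between the wounds. By the rule that values below 0.1 FPKM are raised to 0.1 and a gene is counted at a ratio of at least 2, 4.34% of all listed genes were lower in the PU.1_KO library and 2.32% were higher. All 8 hyaluronan genes had at least 5 FPKM in both libraries, and among the 8942 genes of that level the shares were 0.828% and 0.626%. A count of 0 among 8 genes is therefore near the background for genes of their level. The 8 log2 ratios (PU.1_KO over WT) lay between −0.31 and 0.31, with a median of −0.09 beside 0.00 for the 8942 genes. None of the 8 reached a ratio of 1.5 either. By that limit 7.67% of all listed genes were lower and 5.79% higher, and among the 8942 genes 2.92% were lower and 2.92% higher, so this count too is near the background. The median size of the difference, taken without its sign, was 0.22 on the log2 scale for the 8 genes and 0.15 for the 8942.

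**Figure D1:**
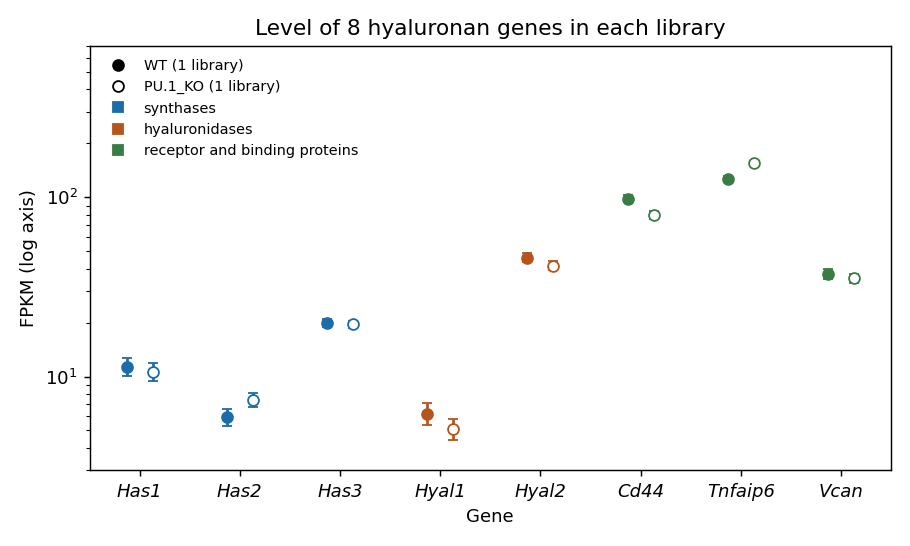
Level of each of the 8 genes in FPKM (vertical log axis), with WT as filled and PU.1_KO as open circles, 1 library each, coloured by role; bars are 95% Poisson counting intervals. Levels span 5.08 to 155 FPKM, and the order of the genes is the same in both libraries but for Has2 and Hyal1, which are close in WT.

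The genes differed widely in level, and their order was nearly the same in both wounds. Tnfaip6 was the most abundant of the 8, followed by Cd44, Hyal2, Vcan, Has3 and Has1, in each library. Neighbours in this order were separated by more than their counting intervals. The last 2 places went to Hyal1 and Has2. In the WT library they could not be ordered, at 6.20 FPKM (interval 5.39 to 7.09) for Hyal1 and 5.94 FPKM (5.32 to 6.62) for Has2. In the PU.1_KO library Has2, at 7.38 FPKM (6.73 to 8.08), lay above Hyal1, at 5.08 FPKM (4.40 to 5.83). Among genes reaching 0.1 FPKM in WT, PU.1_KO or both, Tnfaip6 lay at percentile 95.6 of the WT levels and 96.6 of the PU.1_KO levels, whereas Has2 lay at percentiles 45.6 and 51.0.

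The promoters of Cd44 and Tnfaip6 are shown. Of the genes of hyaluronan-binding proteins, these 2 had the largest differences in these data, Cd44 below its WT level and Tnfaip6 above it. Has2, which had the largest difference of the 8 genes, and Has3 had no promoter entry. Each run is read 5′ to 3′ on the gene's strand, on GRCm38, the assembly of mm10. Capitals mark GGAA, the core bound by ETS factors such as PU.1, its complement TTCC, and TGANTCA, the letters bound by AP-1 factors. For Cd44 it is the 250 bases before the RefSeq start, chr2:102901666-102901915 on the minus strand. For Tnfaip6 the RefSeq start lies 104 bases inside the gene as GENCODE positions it, so the run ends before the GENCODE start and has 146 bases, chr2:52037863-52038008 on the plus strand.
Cd44: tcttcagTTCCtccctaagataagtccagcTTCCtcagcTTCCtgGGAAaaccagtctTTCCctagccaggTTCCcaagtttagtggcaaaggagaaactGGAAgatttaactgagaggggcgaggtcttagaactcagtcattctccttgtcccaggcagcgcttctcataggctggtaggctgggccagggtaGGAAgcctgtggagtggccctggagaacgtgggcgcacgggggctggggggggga
Tnfaip6: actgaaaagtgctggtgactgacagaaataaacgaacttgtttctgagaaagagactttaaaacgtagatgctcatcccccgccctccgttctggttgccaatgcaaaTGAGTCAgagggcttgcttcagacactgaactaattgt
Matches on either strand were counted over the 250 bases before the RefSeq start. Cd44 has 8 matches to GGAA there, a number that 1.45% of 32851 RefSeq promoters of this length reach. It has 2 matches to the longer GAGGAA, which holds GGAA, and 3.54% of all promoters have at least as many. Tnfaip6 has 3 matches to GGAA, the median of all promoters, and all 3 lie in the 104 bases that GENCODE places inside the gene. It has none to GAGGAA. It has 1 match to TGANTCA, in the run shown, as have 6.75% of all promoters, and Cd44 has none. Of the other genes, Vcan has 6 matches to GGAA, a number that 8.69% of all promoters reach. Hyal2 has 4 (reached by 33.4%), Has1 has 3 (54.7%) and Hyal1 has 2 (76.8%). To GAGGAA, Hyal2 has 1 match, as have 23.3% of all promoters, and Has1, Hyal1 and Vcan have none. A match describes letters only, and binding was not measured. Any part of these matches in the differences was not tested.

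The 3 synthases were present in both wounds at nearly equal summed level, 37.1 FPKM in WT and 37.6 FPKM in PU.1_KO. Has3, on chromosome 8 from 106870242 to 106884566 (GENCODE, plus strand, 4 exons), was the most abundant synthase. It is a synthase of keratinocytes among other cells. Has3 measured 19.8 FPKM in WT and 19.5 FPKM in PU.1_KO, a log2 ratio of −0.02 (counting interval −0.12 to 0.08). Its sign turned to positive when the libraries were scaled to the same FPKM sum, so that no direction can be given. Has1, on chromosome 17 from 17843323 to 17855205 (minus strand, 5 exons), measured 11.3 FPKM in WT and 10.6 FPKM in PU.1_KO. Its log2 ratio of −0.09 (−0.32 to 0.14) was within counting error. For Has1 the ratio of the values is met by 296 reads in WT and 319 in PU.1_KO, from a deeper PU.1_KO library, the 1 pair of whole numbers found near the estimate. Spaca6, which overlaps Has1, was at 1.05 and 0.494 FPKM.

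Has2 was the synthase with the largest difference, and it was higher in the PU.1_KO wound. Has2, the main synthase of dermal fibroblasts and the one that embryos cannot do without, lies on chromosome 15 from 56665627 to 56694539 (minus strand, 4 exons). It measured 5.94 FPKM in WT and 7.38 FPKM in PU.1_KO, or 124% of the WT level, with a log2 ratio of 0.31 (0.11 to 0.52). From 331 and 472 estimated reads, the difference was larger than counting error. It was not unusual in size, since 20.4% of the 8942 genes had a larger one in either direction. Within the summed synthase level, the share of Has2 was 16.0% in WT and 19.6% in PU.1_KO, that of Has3 53.4% and 52.0%, and that of Has1 30.6% and 28.3%. The antisense RNA gene Has2os, which overlaps Has2, was near the limit of detection, at 0.266 and 0.463 FPKM. The libraries were made with a stranded kit, but whether strand was used in counting is not given in the sources used here.

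Both hyaluronidases were somewhat lower in the PU.1_KO wound, with a summed level of 52.3 FPKM in WT and 46.6 FPKM in PU.1_KO. HYAL2 is held at the cell surface and cuts long chains into fragments, and HYAL1 cuts fragments further in lysosomes. Their genes are neighbours on chromosome 9, Hyal2 from 107567945 to 107572779 and Hyal1 from 107576927 to 107581710, each on the plus strand with 4 exons. Hyal2 measured 46.1 FPKM in WT and 41.5 FPKM in PU.1_KO, a log2 ratio of −0.15 (−0.27 to −0.03). Hyal1 measured 6.20 FPKM in WT and 5.08 FPKM in PU.1_KO, a log2 ratio of −0.29 (−0.58 to −0.01). Both intervals ended just below 0, and neither difference held against counting error under every scaling. With the libraries scaled to the same FPKM sum, the interval of Hyal2 was −0.23 to 0.02 and that of Hyal1 was −0.53 to 0.04. Scaling to a median log2 ratio of 0 also brought the interval of Hyal1 to include 0. Hyal1 overlaps Naa80 (listed as Nat6, at 15.0 and 13.7 FPKM) and Hyal3 (0.312 and 0.0775 FPKM) on the same strand. It also has 2 RefSeq-linked transcripts, of 2706 and 3014 nt. No pair of whole read numbers near the estimate gave its ratio. Its value may hold a division of reads between genes or between transcripts, which was not tested, and is uncertain. Macrophage markers had a summed level of 835 FPKM in WT and 5.74 FPKM in PU.1_KO. The adipocyte markers were lower in median as well, and the part of either cell type in the hyaluronidase differences was not tested.

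**Figure D2:**
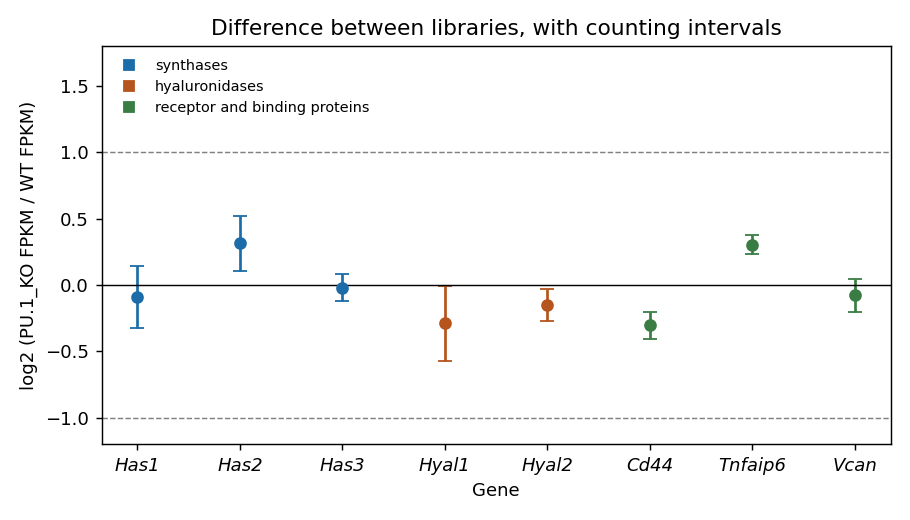
The log2 ratio of PU.1_KO over WT FPKM for each gene (vertical axis), with 95% counting intervals on estimated reads, 1 library per genotype; dashed lines mark 2-fold. Has2 and Tnfaip6 lie above 0, Hyal1, Hyal2 and Cd44 below it, and the intervals of Has1, Has3 and Vcan include 0.

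Cd44 was lower in the PU.1_KO wound. CD44 is the main cell surface receptor of hyaluronan and is carried by leukocytes, fibroblasts and keratinocytes. The gene lies on chromosome 2 from 102811141 to 102901665 (minus strand), and its longest transcript has 19 exons, several of them alternative. Cd44 measured 98.3 FPKM in WT and 79.6 FPKM in PU.1_KO, or 80.9% of the WT level. The log2 ratio was −0.31. Its interval was −0.41 to −0.20 from the shortest of 6 transcripts of Cd44 linked to RefSeq and −0.35 to −0.26 from the longest. Those transcripts span 1412 to 5614 nt and the values do not separate them, so the read number of Cd44 is known only within wide bounds. The intervals do not cover a division of reads between splice forms, which was not tested. Among the 8942 genes, 21.1% differed by more. Over the same comparison the summed level of 9 neutrophil markers was 12564 FPKM in WT and 3676 FPKM in PU.1_KO, with Ngp, Retnlg and Ltf listed at 0 in the latter. Most of either sum came from S100a8, at 6600 FPKM in WT and 2129 FPKM in PU.1_KO, and S100a9, at 5311 and 1516 FPKM. The summed level of 10 mast cell markers was 752 FPKM in WT and 15.5 FPKM in PU.1_KO, with Mcpt4, Tpsab1, Fcer1a and Ms4a2 listed at 0. The part of these cells, of macrophages and of adipocytes in the difference of Cd44 was not tested.

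Tnfaip6 was higher in the PU.1_KO wound, from an already high level. Its product TSG-6 is a secreted protein of inflamed tissue that binds hyaluronan and transfers the heavy chains of inter-alpha-inhibitor onto it. Tnfaip6 lies on chromosome 2 from 52038009 to 52056686 (plus strand, 6 exons) and has 1 annotated transcript. It measured 126 FPKM in WT and 155 FPKM in PU.1_KO, or 123% of the WT level. The log2 ratio of 0.30 (0.23 to 0.38) rested on 2621 and 3716 estimated reads, the most of any of the 8 genes with 1 RefSeq transcript. Of the 8942 genes, 21.2% differed by more. The direction of Tnfaip6 was that of Has2, and opposite to that of Cd44. Fibroblast markers were higher too, with a summed level of 2865 FPKM in WT and 3397 FPKM in PU.1_KO and none of the 10 differing 2-fold. The summed level of 10 skeletal muscle markers was 9482 FPKM in WT and 15854 FPKM in PU.1_KO, with 3 of them at least 2-fold higher and Mb lower, at 4.22 and 2.73 FPKM. The part of either tissue in the differences of Tnfaip6 and Has2 was not tested.

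Vcan did not differ clearly. Versican is a large proteoglycan of the provisional matrix that binds hyaluronan with its head and carries chondroitin sulfate chains. Vcan lies on chromosome 13 from 89655312 to 89742509 (minus strand), and its longest transcript has 15 exons. It measured 37.4 FPKM in WT and 35.4 FPKM in PU.1_KO, a log2 ratio of −0.08. The interval of −0.20 to 0.04, from the shortest of 5 RefSeq-linked transcripts, includes 0, while that from the longest, −0.13 to −0.03, does not. Since the splice forms of Vcan differ from 2273 to 12427 nt and the values do not separate them, its read number is known only within wide bounds.

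**Figure D3:**
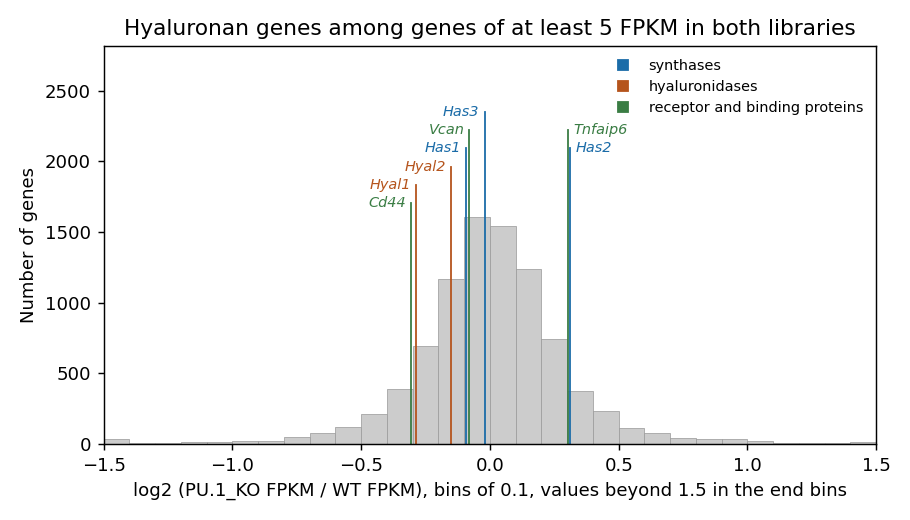
Number of genes (vertical axis) by log2 ratio of PU.1_KO over WT FPKM (horizontal axis, bins of 0.1) for the 8942 genes of at least 5 FPKM in both libraries, with a line at each of the 8 genes, coloured by role. All 8 lie in the central part of the distribution, between −0.31 and 0.31.

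The genes nearest to a member in the plane of log2 WT and log2 PU.1_KO level were listed for the 3 members with the largest differences, a likeness over only 2 libraries. For Has2 they were Skint9, Olfml2a and Nr1d1, at distances of 0.01 to 0.03. For Cd44 they were Sec13, Efhd2 and Ap1s1, at distances of 0.01 to 0.02. For Tnfaip6 they were Mmp14, Tmem176b and Map1lc3a, at distances of 0.04 to 0.06.

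Around the 8 genes, a list of 80 others that supply, bind, modify or degrade hyaluronan and versican was read in the same way. Of these, 7 were at least 2-fold lower in PU.1_KO and 1 was higher, beside 4.34% and 2.32% of all listed genes, with a median log2 ratio of −0.03. Of the 60 that reached 1 FPKM in WT, PU.1_KO or both, 4 were lower and none was higher. The shares among all 13237 genes that reached 1 FPKM were 4.45% lower and 1.71% higher, and nothing particular to the list is read from these counts. The 4 were Stab1, Itih4, Spp1 and Srgn. Srgn, the gene of the leukocyte proteoglycan serglycin, whose sugar chains CD44 can bind, was at 368 FPKM in WT and 6.83 FPKM in PU.1_KO. Spp1, the gene of osteopontin, another ligand of CD44, was at 206 and 51.2 FPKM. The other 7 genes in the list of CD44 partners and splicing factors did not reach 2-fold, among them Ezr, which links membrane proteins to actin, at 161 and 172 FPKM, and Msn, its relative, at 140 and 121 FPKM.

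The sugar supply resembled the synthases, with 0 of 12 genes at 2-fold and a median log2 ratio of −0.07. Ugdh, which makes the UDP-glucuronic acid that synthases use, was at 81.5 FPKM in WT and 94.3 FPKM in PU.1_KO, and Ugp2, an enzyme before it, was at 39.2 and 42.5 FPKM. Of 7 other hyaluronidase and depolymerase genes listed, 3 reached 1 FPKM, and none of these 3 differed 2-fold. Tmem2, a cell surface hyaluronidase, was at 14.7 and 14.8 FPKM, and Cemip, a secreted hyaluronan depolymerase factor, was at 3.23 and 2.88 FPKM. Of the lysosomal exoglycosidases that take the ends off fragments, Gusb was at 27.7 FPKM in WT and 16.8 FPKM in PU.1_KO, a log2 ratio of −0.72 (−0.87 to −0.58). Hexa was at 24.5 and 17.3 FPKM, a log2 ratio of −0.50 (−0.68 to −0.33). Both were lower by more than counting error and by less than 2-fold.

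Of 5 receptor genes other than Cd44, 1 was at least 2-fold lower in PU.1_KO and none was 2-fold higher. Stab1, a scavenger receptor of macrophages and some endothelia that can take up hyaluronan, was at 9.49 FPKM in WT and 3.40 FPKM in PU.1_KO. Lyve1, carried by lymphatic endothelium and by a class of tissue macrophages, was at 38.3 FPKM in WT and 21.5 FPKM in PU.1_KO, a log2 ratio of −0.83 (−0.96 to −0.71). Over the same comparison the 6 lymphatic markers had a median log2 ratio of 0.82, with Mmrn1 at 6.26 and 11.5 FPKM and Ccl21a at 9.61 and 25.8 FPKM. Of the 6, 2 were at least 2-fold higher, and Pdpn was at 81.7 FPKM in each library. Lyve1 was lower while the median of this list was above 0 and the macrophage markers were lower. The part of either cell type in its difference was not tested. Layn was at 9.61 and 9.68 FPKM, and Hmmr at 3.48 and 3.37 FPKM.

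The partners of TSG-6 and versican were uneven. Of the genes for the heavy chains and the light chain that TSG-6 handles, Itih1 was listed at 0 in both libraries, Itih2 was at 0.0495 and 0 FPKM, Itih3 at 0.276 and 0.722 FPKM, and Ambp at 0.0706 and 0 FPKM. Among their relatives, Itih4 was at 5.31 FPKM in WT and 0.288 FPKM in PU.1_KO, from an estimated 200 and 12 reads, and Itih5 was at 8.14 and 10.4 FPKM. Ptx3, a pentraxin that joins this matrix, was at 67.2 and 44.6 FPKM. Of 7 proteases of the versican-cutting family, only the low-level Adamts8 (0.505 and 0.238 FPKM) reached 2-fold. Adamts1 was at 42.2 FPKM in WT and 70.9 FPKM in PU.1_KO, a log2 ratio of 0.75 (0.68 to 0.81), higher by more than counting error. Adamts4 was at 21.4 and 25.4 FPKM, and the median log2 ratio over the 7 was 0.25. None of 5 versican partners differed 2-fold, with Postn at 370 and 450 FPKM and Tnc at 204 and 181 FPKM. Of 18 enzymes of chondroitin sulfate chains 1 was lower, Chst13, at 0.250 and 0.0871 FPKM, and their median was −0.05. The most abundant of them were B3gat3, at 24.3 and 21.5 FPKM, and Fam20b, at 23.4 and 22.6 FPKM. Other hyalectans and link proteins did not reach 1 FPKM in either library, and 0 of 7 differed 2-fold. The highest were Hapln3, at 0.708 and 0.411 FPKM, and Acan, at 0.352 and 0.631 FPKM.

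**Figure D4:**
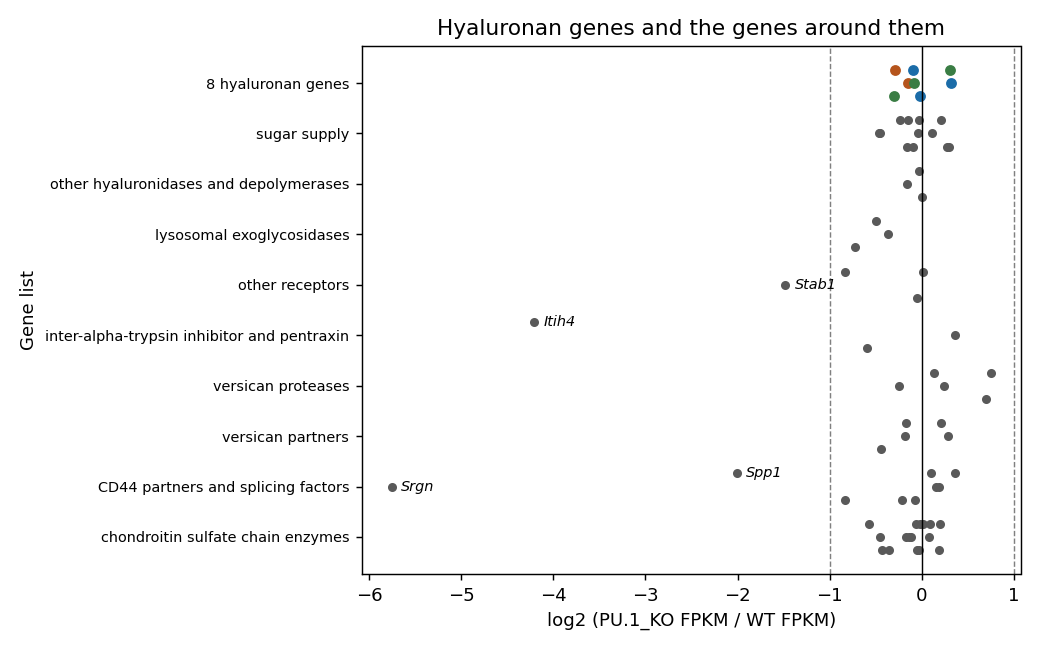
The log2 ratio of PU.1_KO over WT FPKM (horizontal axis) for the 8 genes (top row, coloured by role) and for the 60 related genes that reached 1 FPKM in WT, PU.1_KO or both (grey, a row per list); dashed lines mark 2-fold. The 8 genes lie within 0.31 of 0, and 4 related genes lie past 2-fold, all of them lower in PU.1_KO.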

How the data were processed

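Total RNA of wounds was made into libraries with a stranded mRNA kit and read single-end. The authors mapped reads to mm10 and deposited FPKM values made with Cuffnorm. The submitters' processing notes name TopHat2 2.1.1, Bowtie2 2.2.8, SAMtools 0.1.18 and Cuffdiff 2.2.1. The annotation is not given in the sources used here.

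Ratios were taken from the deposited FPKM values after values below 0.1 were raised to 0.1. FPKM keeps the whole-read steps of low genes: 459 genes below 2 FPKM in WT shared a WT over PU.1_KO ratio of 1.149 within 0.001, that of equal read numbers. For 715 genes with 1 GENCODE transcript, of over 800 nt, the ratio gave whole read numbers (denominators up to 30, relative tolerance 1.5e-05). Of these, the 418 whose read numbers were not small in both libraries were used. Their FPKM and transcript length less 200 nt gave a depth of about 13800000 fragments for WT and 15800000 for PU.1_KO, from the 192 genes within 10% of the most frequent value. The read numbers are estimates that rest on it and on the transcript lengths. The shortest RefSeq-linked transcript of a gene set its reads, which makes intervals wide rather than narrow. The longest was tried after the data were seen. Gene positions are those of GENCODE M21 on GRCm38. Promoters came from RefSeq, and 6 of the 8 genes had an entry.

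The 8 genes and all lists were chosen with earlier results of these data known. Named genes are the 8, Spi1, per list those at least 2-fold different with at least 1 FPKM and the 2 highest in WT, markers, and the 3 nearest genes of 3 members. Any other gene was named with its values in view. A gene of the related lists is not reported here. The depth estimate, the 2-fold rule and the binomial interval were first tested on simulated data, with 1 transcript length per gene. The other steps were not tested in this way. The tools were scipy 1.17.1, numpy 2.4.6 and pandas 2.3.3 in Python 3.11.15, with plots by matplotlib 3.10.9.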

Additional observations from a re-analysis of the deposited data

How the results depend on the processing

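No paired analysis was possible because each genotype has 1 library, and for the same reason no library was left out. The counts of hyaluronan genes at 2-fold stayed at 0 in both directions under all 10 alternatives of floor, pseudocount, filter, scaling and fold. A fold of 3 could not raise counts that were 0 at a fold of 1.5. Under the 8 alternatives of floor, pseudocount, filter and scaling, each log2 ratio stayed within the interval of the value as deposited. Each kept its sign, except that of Has3, which ranged from −0.02 to 0.04 and was positive under 2. All 8 genes had at least 5 FPKM in both libraries. The floor of 1 FPKM and the filters at 1 and 5 FPKM therefore could not change their ratios. A scaling shifts the 8 log2 ratios alike. With the interval rescaled along with the ratio, that of Hyal1 included 0 under all 3 scalings and that of Hyal2 under 2, while those of Has2, Cd44 and Tnfaip6 excluded 0 under all 3. Scaling to the same FPKM sum moved the median of genes at 10 FPKM or above in WT and PU.1_KO alike to 0.04, and without Mir and Snor genes to 0.05.

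Counts of related and of all genes depended on low genes. With values below 1 FPKM raised to 1, 4 related genes were lower and 0 higher, and 463 and 164 of all genes. With a pseudocount of 1 FPKM these were 4 and 0, and 461 and 89. Over genes that reach 1 FPKM in WT, PU.1_KO or both they were 4 and 0, and 589 and 226. Over those that reach 5 FPKM they were 4 and 0, and 306 and 98. A fold threshold of 1.5 gave 12 and 5, and 1867 and 1410, and one of 3 gave 4 and 0, and 681 and 150. The main counts are 7 and 1 of the related genes, and 1057 and 565 of all genes. With 1 library per genotype, differences of the size seen in the 8 genes cannot be told from differences between animals.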
